A study of Drosophila melanogaster with 6 samples.

Results

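Long noncoding RNA (lncRNA) and antisense RNA (asRNA) genes are transcribed genes with no annotated protein product, and an asRNA gene lies across another gene on the opposite strand. The genes described here are those whose FlyBase symbol begins with lncRNA: or asRNA: and whose mean over 6 wing disc libraries was at least 1 FPKM, a fragment count divided by transcript length and library depth. They were thus chosen by level, over both groups together. The rule kept 129 genes, 70 of them asRNA and 59 lncRNA genes, of 2361 such genes in the tables and 17524 genes of all kinds. Of the 2361, 700 were above 0 in any library.

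The wing imaginal disc is the larval epithelium that forms the adult wing and notum. There were 3 libraries of control discs (MS1096-Gal4) and 3 of dNKAP knockdown discs (MS1096-Gal4>dNKAP RNAi). The Gal4 insertion sits at the Beadex (Bx) gene in both groups and is active mostly in the wing pouch, so other cells of the discs make little or no hairpin. Library values are given in the order of replicates 1 to 3. The labels name no age, sex or cross and do not say that replicates came from separate crosses or animals, and p-values rest on the spread among these libraries, which may be technical.

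Some long noncoding RNAs of the fly have known roles. The roX RNAs are part of the complex that raises transcription of the single X chromosome of males, and Hsr-omega RNA gathers RNA-binding proteins into nuclear speckles. An antisense RNA can act on the gene it lies across, through its own transcription or by pairing with the mRNA, and others are made without a known role. In libraries counted without strand, reads from the shared stretch of a sense and antisense pair cannot be told apart, and the strand of these libraries is not given in the sources used here.

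The libraries listed 33445 to 33742 transcripts, and read depth times transcript length summed to 4.14 to 6.44 gigabases per library. The lncRNA and asRNA genes took 0.489% to 0.618% of the FPKM assigned to genes. CG6066, the gene of dNKAP, fell from 24.4 ± 2.01 to 12.9 ± 1.33 FPKM (SD, n = 3 in each group, log2 change −0.90, adjusted p = 0.0146). Of 8 markers of the disc epithelium, among them vg, sd, ap, rn and nub, all were tested, 0 passed limma's test and 0 had an unadjusted p under 0.05. In bulk discs, fewer cells of a type and less RNA per cell cannot be told apart.

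The lncRNA and asRNA genes were low in listed level, and asRNA genes had the higher median. Their median of the mean level over libraries was 5.48 FPKM, 14.3 FPKM for asRNA and 2.42 FPKM for lncRNA genes, against 21.3 FPKM for all 6506 genes whose mean reached 1 FPKM. Of the 129 genes, 8 reached 100 FPKM, 41 lay between 10 and 100 FPKM and 80 lay under 10 FPKM. At the edge of the rule stood lncRNA:CR46252 (1.04 FPKM), asRNA:CR45895 (1.06 FPKM) and lncRNA:CR32582 (1.09 FPKM) inside, and asRNA:CR44386 (0.969 FPKM), lncRNA:CR43436 (0.912 FPKM) and lncRNA:CR46102 (0.901 FPKM) outside. These levels chose the genes and are given as a description. With the strand unknown, reads of a coding gene on the opposite strand may be part of an asRNA value, which was not tested.

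Their positions (BDGP6 assembly, called dm6) covered every large chromosome arm. There were 25 on 2L, 18 on 2R, 29 on 3L, 37 on 3R, 19 on X and 1 on 4. The X held 14.7% of them and 16.9% of all tested genes. The annotated exons spanned a median of 883 bases (208 to 9247 bases), and 77 genes had a single exon block. By annotated exons, 45 genes shared no bases with another gene. For the others, the gene that shared most bases lay on the opposite strand in 77 and on the same strand in 7.

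Few of these genes were called changed in dNKAP RNAi discs, at shares near those of all tested genes. Genes that were not called are not thereby shown to be unchanged. With a limma test over all 6506 genes on log2(FPKM + 0.5) and a threshold of 0.05 for the adjusted p, 3 of the 129 genes rose (lncRNA:CR44111, lncRNA:CR45018 and asRNA:CR45195) and 1 fell (lncRNA:CR46123). Over all genes tested, 3.21% rose, 0.507% fell and 3.72% did either, so the share of lncRNA and asRNA genes called lay close to the background in each direction. At an unadjusted p under 0.05 there were 28 of the 129, against 19.0% of all tested genes. The median log2 change of the 129 was 0.02, against 0.03 for all tested genes, with 67 values above 0 and 62 below. Groups did not overlap, with dNKAP RNAi higher, for 21 of the 129 (background 17.3%), and did not overlap with dNKAP RNAi lower for 12 (background 11.2%).

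All 4 called genes passed the 1 FPKM filter through a single group, since their mean in the other group was under 1 FPKM. That was so for 19 genes in all, 11 of them through the dNKAP RNAi group and 8 through the controls. A gene that enters in this way has group means on either side of 1 FPKM by the rule. The rule does not set the size of the difference. lncRNA:CR46252, at 1.28 FPKM in controls and 0.810 FPKM in dNKAP RNAi discs, had overlapping groups (limma adjusted p = 0.624). The 4 calls are described and not counted as support for a change of the class. The other 110 genes had a mean of at least 1 FPKM in both groups.

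**Figure D1:**
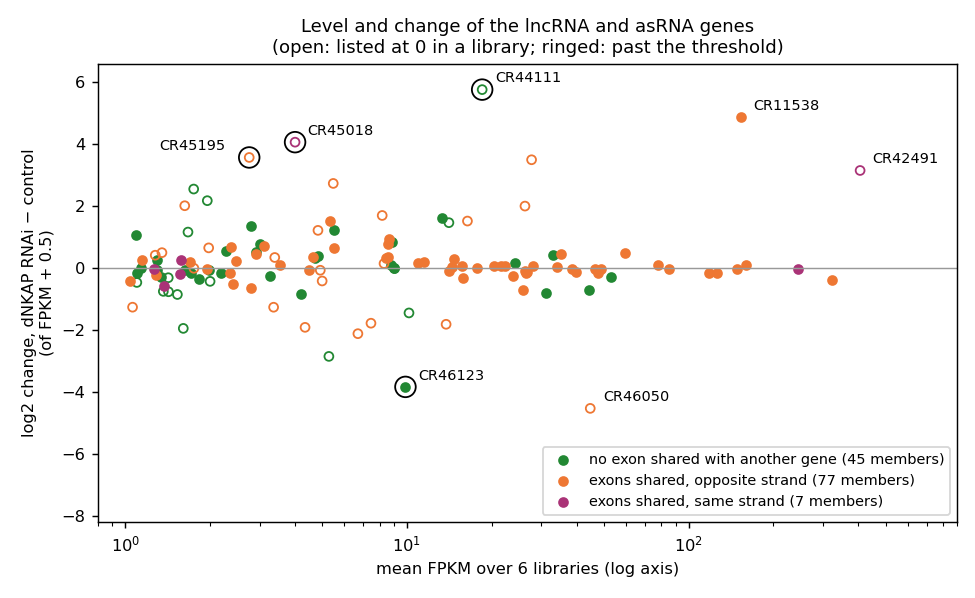
Mean FPKM over 6 libraries (log axis) against the log2 change of FPKM + 0.5 (dNKAP RNAi minus control) for the 129 genes, coloured by exon overlap with other genes. The 4 ringed genes passed the threshold, open circles have at least 1 library listed at 0, and most filled circles lie near 0.

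The largest fitted change was that of lncRNA:CR44111 (FBgn0264942, X:8919640-8920467, minus strand, exons of 706 bases). It lies within the span of rdgA, a diacylglycerol kinase gene known from the eye, on the opposite strand and without shared exon bases. Its values were 0.0890, 0 and 0.588 FPKM in control replicates 1 to 3 and 40.1, 34.2 and 36.0 FPKM in dNKAP RNAi replicates 1 to 3. The groups were far apart, with every control library under 1 FPKM and every dNKAP RNAi library above 30 FPKM. The log2 change was 5.76 (SE 0.32, adjusted p = 0.00108). It understates a change from so low a level and ranged from 4.97 to 7.29 with pseudocounts of 1 and 0.1.

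Of the genes around lncRNA:CR44111, rdgA and e(r) did not pass the test, and CG12661 was under the level tested. rdgA measured 2.86 ± 0.221 FPKM in controls and 3.36 ± 0.0533 FPKM in dNKAP RNAi discs (SD, n = 3, adjusted p = 0.512). e(r), 13392 bases to the lower-coordinate side, had an adjusted p of 0.594. CG12661, 2421 bases to the other side, was listed at 0 in 5 of 6 libraries and at 0.153 FPKM in dNKAP RNAi replicate 2.

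lncRNA:CR46123 fell. It is a single-exon gene of 368 bases (3R:1366234-1366601, minus strand) inside the span of Myo81F, a myosin gene that spans 3R:567076-2532932 on the other strand. Control replicates 1 to 3 measured 13.6, 23.1 and 20.1 FPKM, and dNKAP RNAi replicates 1 to 3 measured 1.20, 0.555 and 0.816 FPKM. The lowest control library stood above 10 FPKM and the highest dNKAP RNAi library near 1 FPKM, so the groups did not overlap. Means were 18.9 ± 4.84 and 0.856 ± 0.323 FPKM (SD, n = 3), with a log2 change of −3.83 (SE 0.28, adjusted p = 0.00285). Myo81F and the nearest annotated gene on either side, CR12798 and lncRNA:CR46122, were listed at 0 in all 6 libraries.

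lncRNA:CR45018 (X:13304005-13308004, plus strand, 1 exon block of 4000 bases) shares 35.8% of its bases with IP3K2, an inositol trisphosphate kinase gene on the same strand. It was listed at 0 in all 3 controls, with deposited upper bounds of 0.0408 to 0.0598 FPKM, and at 6.02, 9.51 and 8.53 FPKM in dNKAP RNAi replicates 1 to 3 (adjusted p = 0.00183). No fold is given against a group listed at 0. IP3K2 measured 41.2, 39.6 and 35.1 FPKM in control discs and 26.0, 36.6 and 35.8 FPKM in knockdown discs (adjusted p = 0.456). When both genes were summed into 1 value, an alternative chosen after the data were seen, the log2 change was 0.06 and the adjusted p 0.850. IP3K2 gave the larger part of that sum in every library, so the sum does not show lncRNA:CR45018 alone. The SD of IP3K2 was 3.19 and 5.89 FPKM in the control and dNKAP RNAi groups.

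asRNA:CR45195 (3R:10876834-10877783, minus strand) shares 86.1% of its 889 exon bases with Sodh2, a sorbitol dehydrogenase gene on the plus strand. Controls were listed at 0, with deposited upper bounds of 0.0967 to 0.144 FPKM, and dNKAP RNAi replicates 1 to 3 at 6.11, 4.37 and 6.06 FPKM (adjusted p = 0.00329). The dNKAP RNAi values did not come from the annotated transcript. They came from assembled transcripts of 2279, 2210 and 2376 bases, which in all 3 libraries belonged to the same assembled gene as CG14695. Without the class of transcripts that only overlap an exon, which supplied the value of replicate 2, the adjusted p was 0.305.

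CG14695, a protein-coding gene 421 bases from asRNA:CR45195 on the same strand, rose as well. It measured 0.456, 0 and 1.34 FPKM in control discs and 15.4, 17.8 and 25.2 FPKM in knockdown discs, with a log2 change of 4.35 (SE 0.52, adjusted p = 0.0139). Sodh2 measured 1.68 ± 1.01 FPKM in controls and 7.54 ± 1.23 FPKM in dNKAP RNAi discs, and its groups did not overlap (log2 change 1.99, adjusted p = 0.0689). The sum of asRNA:CR45195 and Sodh2 had a log2 change of 2.75 (adjusted p = 0.0233). Sodh2 gave the larger part of that sum in every library, so the sum does not show asRNA:CR45195 alone.

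**Figure D2:**
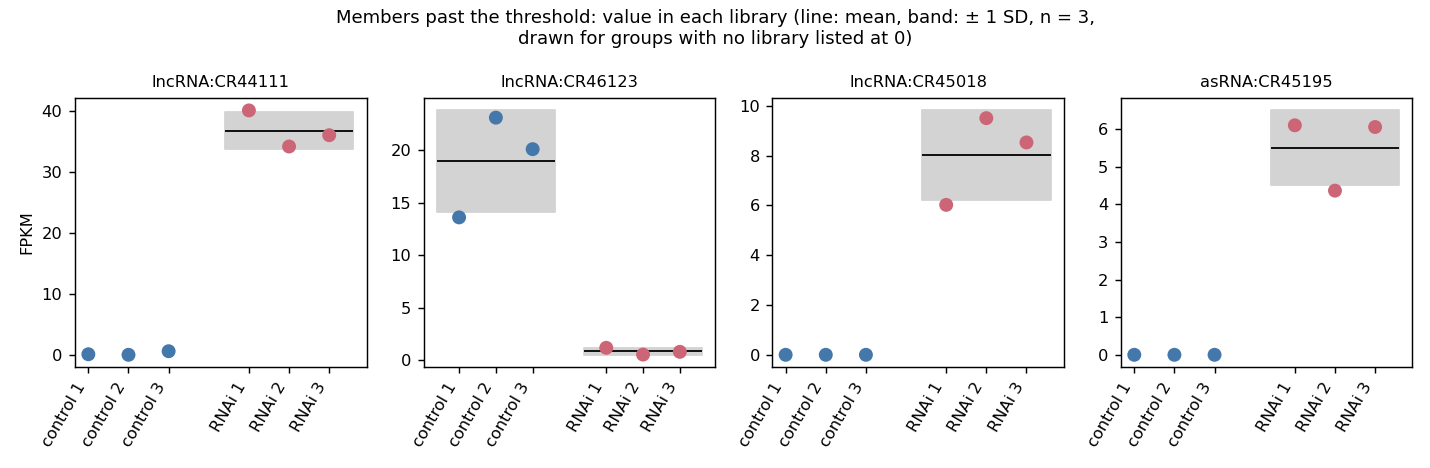
FPKM in each of the 6 libraries for the 4 genes past the threshold, with the mean (line) and 1 SD (band) where no library of the group was listed at 0. In every panel the 3 dNKAP RNAi libraries and the 3 controls occupy separate ranges.

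The 12 most abundant genes included none that passed the test, and 11 of them overlap the exons of a protein-coding gene. Highest as listed was lncRNA:CR42491, which shares 50.5% of its bases with RpL22, a ribosomal protein gene on the same strand. Strand cannot separate reads of that shared stretch, and the part of RpL22 reads in its value and rank was not tested. lncRNA:CR42491 measured 577.9, 0 and 478.3 FPKM in control discs and 432.9, 473.5 and 474.5 FPKM in knockdown discs. Control replicate 2 was listed at 0 although the other 5 libraries lay above 400 FPKM, and RpL22 was between 1839 and 2703 FPKM in all 6. The log2 change was 3.15 with an SE of 2.90, and without control replicate 2 it was −0.19.

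asRNA:CR45778 was the most abundant asRNA gene. It shares 84.6% of its exon bases with dUTPase, the enzyme that removes dUTP before it can enter DNA. Controls measured 395.8, 340.4 and 350.3 FPKM, and dNKAP RNAi replicates 1 to 3 measured 309.0, 279.95 and 253.5 FPKM. The groups did not overlap, and the log2 change of −0.37 (SE 0.10) did not pass (adjusted p = 0.136). dUTPase was listed at 0 in all 6 libraries.

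lncRNA:CR42862 shares 4.48% of its bases with CG33229 and measured 248.8 ± 57.0 FPKM in controls and 240.7 ± 35.1 FPKM in dNKAP RNAi discs (SD, n = 3, adjusted p = 0.957). asRNA:CR45141 lies across AspRS, the aspartyl-tRNA synthetase gene, and measured 155.1 ± 6.78 and 164.8 ± 2.93 FPKM (adjusted p = 0.409). AspRS itself was listed at 178.4 FPKM in dNKAP RNAi replicate 1 and at 0 in the other 5 libraries, while asRNA:CR45141 was between 149.3 and 167.5 FPKM in all 6. The nearest gene on the higher-coordinate side of this pair, 948 bases away, is the wing selector vg.

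asRNA:CR44049 lies with 97.5% of its exon bases across woc, a zinc finger protein gene. It measured 149.6 ± 7.45 and 146.8 ± 19.2 FPKM in the control and dNKAP RNAi groups (adjusted p = 0.894), close to woc itself at 161.3 ± 4.91 and 143.5 ± 7.95 FPKM (adjusted p = 0.224). asRNA:CR45818, across the Hsp90 cochaperone gene Cdc37, measured 133.6 ± 7.53 and 119.6 ± 1.07 FPKM, and Cdc37 106.9 ± 8.49 and 93.8 ± 1.40 FPKM. Neither passed the test (adjusted p = 0.225 and 0.245), and both were lower in each dNKAP RNAi library than in any control. asRNA:CR44897, across the Slit receptor gene robo2, measured 123.8 ± 10.5 and 111.6 ± 2.20 FPKM (adjusted p = 0.341).

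The remaining genes of the 12 were also asRNA genes. asRNA:CR44179 (across CG5112) measured 85.9 ± 6.46 and 85.1 ± 12.4 FPKM (adjusted p = 0.949), and CG5112 was listed at 0 throughout. asRNA:CR44115, across the coat protein gene Sec24CD, measured 74.7 ± 4.19 and 81.1 ± 20.9 FPKM (adjusted p = 0.820), while 5 libraries listed Sec24CD at 0 and control replicate 1 gave 18.7 FPKM. asRNA:CR46092, across the glutamyl-prolyl-tRNA synthetase gene GluProRS, measured 49.2 ± 2.89 and 69.5 ± 13.1 FPKM (log2 change 0.48, adjusted p = 0.197), without overlap of the groups. GluProRS was higher in every dNKAP RNAi library than in any control too, at 83.6 ± 4.20 and 92.6 ± 1.78 FPKM (adjusted p = 0.246).

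A characterised gene of the wing stands twelfth. bsAS lies in the opposite direction within blistered (bs), the fly serum response factor gene that sets intervein cell fate, and has been described as an antisense RNA that acts on bs isoforms in the fly wing. It spans 2R:24351477-24369689 and shares no exon bases with bs. Controls measured 59.3, 62.7 and 52.5 FPKM and dNKAP RNAi replicates 1 to 3 measured 37.2, 55.1 and 50.6 FPKM. The groups overlapped, since dNKAP RNAi replicate 2 exceeded control replicate 3, and the log2 change of −0.30 (SE 0.17) did not pass (adjusted p = 0.392). bs measured 11.97 ± 1.45 FPKM in controls and 7.71 ± 1.16 FPKM in dNKAP RNAi discs, with separate groups and a log2 change of −0.61 that did not pass either (adjusted p = 0.117).

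Besides bsAS, 5 other genes carry a name that is not a CR number alone. For roX1, 5 libraries gave 0 and control replicate 2 gave 26.1 FPKM, with deposited upper bounds under 0.0329 FPKM. It shares 7.17% of its bases with ec, a gene on the opposite strand that measured 101 to 142 FPKM. roX2, under the rule's threshold at a mean of 0.870 FPKM and named after its values were seen, measured 1.60, 2.11 and 0 FPKM in control discs and 0.598, 0.326 and 0.591 FPKM in knockdown discs. Of the proteins that bind roX RNAs or guide the complex, 5 of 6 genes were tested, 0 passed limma's test and 0 had an unadjusted p under 0.05. The most abundant were Clamp at 64.0 ± 3.42 and 71.6 ± 18.4 FPKM and the helicase gene mle at 31.2 ± 2.40 and 32.1 ± 1.03 FPKM.

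lncRNA:alphagamma-element:CR32865 is transcribed from the Hsp70 cluster and is known to be induced by heat shock. It measured 1.02, 2.26 and 1.00 FPKM in control discs and 24.7, 0.236 and 3.80 FPKM in knockdown discs. A single library, dNKAP RNAi replicate 1, held 74.8% of the summed FPKM, and dNKAP RNAi replicate 2 was the lowest of all 6 (adjusted p = 0.631). The nearest genes on either side were the heat shock genes Hsp70Ba and Hsp70Bbb. Hsp70Bbb measured 80.2, 279.9 and 390.7 FPKM in control discs and 942.0, 45.4 and 547.9 FPKM in knockdown discs, so replicate 1 was highest and replicate 2 lowest for this gene as well. Hsr-omega, also a heat shock RNA, had a mean of 0.194 FPKM and lay under the threshold.

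lncRNA:marge measured 49.4, 59.8 and 51.5 FPKM in control discs and 17.8, 39.8 and 47.9 FPKM in knockdown discs. The groups did not overlap, though dNKAP RNAi replicate 1 stood well under the other 2, and the test did not pass (log2 change −0.71, adjusted p = 0.378). lncRNA:noe, within the span of blot and known from the nervous system, measured 4.06 ± 0.567 and 5.60 ± 1.29 FPKM (adjusted p = 0.367). lncRNA:mimi, whose first bases overlap the microRNA gene mir-9381, measured 1.76 ± 0.807 and 0.983 ± 0.326 FPKM (adjusted p = 0.511).

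Zeros were frequent among these genes. At least 1 library was listed at 0 for 39 of the 129 genes (30.2%), against 15.3% of all tested genes. The sets were not matched for level, with 80 of the 129 and 1984 of the 6506 tested genes under 10 FPKM. The zeros were 78 of 774 values, of which 71 had a deposited upper bound above 0. None had a depth above 0, but depth stands in the same transcript rows as FPKM and is not separate evidence. A gene without such a row in a library was given a value, bound and depth of 0. Of the 39 genes, 17 were at 0 in 1 library and 22 in 2 to 5 libraries, and 16 had a mean of at least 5 FPKM over all libraries. A value of 0 in a locus that is well covered in the sister libraries is reported here as listed at 0 and not as absence of the RNA.

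Some asRNA genes were listed at 0 in some libraries and well above 0 in others of the same group. asRNA:CR45812 measured 21.0 FPKM in control replicate 3, 28.8 FPKM in dNKAP RNAi replicate 2 and 0 in the other 4 libraries, while its partner CG12084 measured 24.5 to 37.7 FPKM in 5 libraries and 0 in control replicate 1. asRNA:CR46050 measured 55.8, 57.9 and 74.7 FPKM in controls, 80.1 FPKM in dNKAP RNAi replicate 1 and 0 in replicates 2 and 3. Its partner CG42671 measured 15.4 to 34.2 FPKM in all 6 libraries. CG42671 went the other way, higher in each dNKAP RNAi library than in any control (log2 change 0.60), and did not pass limma's test (adjusted p = 0.232). Leaving out dNKAP RNAi replicate 1 put asRNA:CR46050 past the threshold, which rests on the 2 libraries listed at 0.

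**Figure D3:**
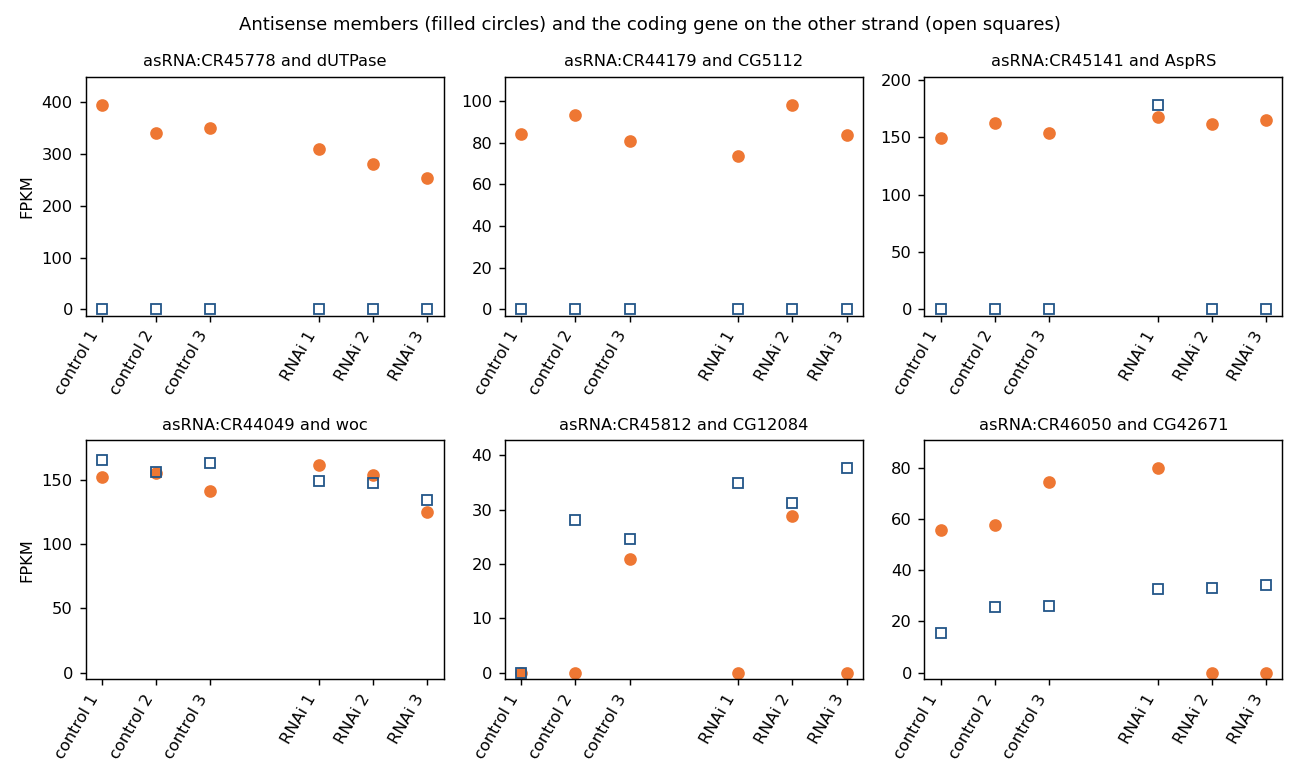
FPKM in each library for 6 asRNA genes (filled circles) and the protein-coding gene on the other strand (open squares). dUTPase and CG5112 are listed at 0 in all 6 libraries, AspRS in 5, woc follows asRNA:CR44049 closely, and asRNA:CR45812 and asRNA:CR46050 are listed at 0 in 4 and 2 libraries.

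In 6 genes a single library held over 60% of the FPKM summed over libraries. asRNA:CR46034, which lies with all its exon bases across CG33333, measured 161.9 FPKM in dNKAP RNAi replicate 2, 4.001 FPKM in replicate 3, 0 in replicate 1 and 0.102 to 0.156 FPKM in controls. lncRNA:CR44265, across the negative elongation factor gene Nelf-A, was listed at 40.2 FPKM in control replicate 3 alone, and asRNA:CR45895 at 6.37 FPKM in the same library alone. lncRNA:CR46064 measured 25.1 FPKM in dNKAP RNAi replicate 2 and at most 1.84 FPKM elsewhere. roX1 and the alphagamma element complete the 6. dNKAP RNAi replicate 2 was also the library with the largest share of FPKM in transcript classes left out of gene values, 3.70% against 0.267% to 0.630% in the other 5.

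For 71 of the 129 genes, the gene sharing most exon bases was protein-coding, on the opposite strand and listed with values. The median share of the exon bases of these 71 genes was 77.6%. For 16 of the 71 (22.5%) the partner was listed at 0 in all 6 libraries, against 29.3% of all 13769 protein-coding genes in the tables. The sets are unlike, since each partner lies across a gene of at least 1 FPKM and the coding genes at large were not chosen by level. These 16 genes had a median mean level of 10.1 FPKM, and 8 of them exceeded 10 FPKM, among 38 with a protein-coding partner that did. The highest were asRNA:CR45778 (dUTPase), asRNA:CR11538 (Lsp2), asRNA:CR44179 (CG5112) and asRNA:CR44291 (CG31460). asRNA:CR44275, at a mean of 26.4 FPKM, lies across dpn, a transcription factor gene of neural stem cells, and asRNA:CR43463, at 14.1 FPKM, lies with 100% of its exon bases across Pgant35A.

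The partner gene was itself tested in 49 pairs. No partner passed limma's test in either direction, and 13 had an unadjusted p under 0.05. In 24 of the 49 pairs the asRNA or lncRNA gene had the higher level per length, which is the scale of FPKM. The log2 changes had the same sign in 33 of 49 pairs, with a Pearson r of 0.23 across pairs. Among the 32 pairs in which both genes were above 0 in every library, 23 shared the sign, with r = 0.73 and Spearman rho = 0.72, and the mean log2 levels correlated with r = 0.81. These correlations are descriptions across pairs, whose genes share exon bases, libraries and, without strand, possibly reads.

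**Figure D4:**
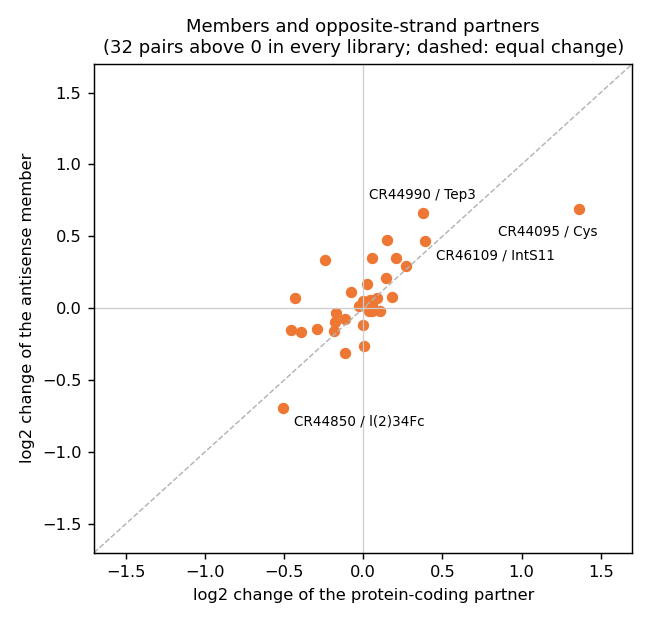
Log2 change (dNKAP RNAi minus control) of the protein-coding partner against that of the asRNA gene across it, for the 32 pairs above 0 in every library. Most pairs lie near 0, asRNA:CR44850 with l(2)34Fc lies lowest, and asRNA:CR44095 with Cys lies apart at the upper right.

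The pair farthest from the rest was asRNA:CR44095 and Cys, a cystatin-like protease inhibitor gene, with 56.6% of the asRNA exon bases shared. asRNA:CR44095 measured 1.33, 1.71 and 2.06 FPKM in control discs and 3.29, 3.42 and 2.41 FPKM in knockdown discs (log2 change 0.69, adjusted p = 0.214). Cys measured 1.65 ± 0.672 and 4.97 ± 1.54 FPKM (log2 change 1.36, adjusted p = 0.119). The groups of both genes were apart, with dNKAP RNAi higher. Without this pair, left out after the data were seen, r across the other 31 was 0.70 and rho 0.70.

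Several pairs near the threshold had log2 changes of the same sign in both genes. asRNA:CR44990 shares 92.8% of its exon bases with Tep3, a thioester-containing protein gene of the complement-like family. It measured 3.90, 4.27 and 4.27 FPKM in control discs and 6.99, 7.41 and 6.20 FPKM in knockdown discs. The groups were apart, with a log2 change of 0.66 (SE 0.12, adjusted p = 0.0529). Tep3 measured 5.14 ± 0.0431 and 6.86 ± 0.915 FPKM (log2 change 0.38, adjusted p = 0.204). The sum of both genes passed (log2 change 0.54, adjusted p = 0.0408), with Tep3 the larger part of it in each library except dNKAP RNAi replicate 2.

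asRNA:CR44850, which shares 88.2% of its exon bases with l(2)34Fc, measured 35.9, 32.0 and 28.3 FPKM in control discs and 19.1, 23.0 and 17.1 FPKM in knockdown discs. All 3 dNKAP RNAi libraries lay under all 3 controls, and the log2 change was −0.69 (SE 0.14, adjusted p = 0.0755). l(2)34Fc measured 31.9 ± 2.29 and 22.7 ± 5.10 FPKM (log2 change −0.51, adjusted p = 0.225).

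asRNA:CR46109 lies across IntS11, the endonuclease subunit of the Integrator complex that cleaves nascent snRNAs and other short transcripts. It measured 29.6 ± 4.57 FPKM in controls and 40.8 ± 2.25 FPKM in dNKAP RNAi discs (log2 change 0.47, SE 0.13, adjusted p = 0.142). IntS11 measured 32.5 ± 0.487 and 42.8 ± 3.05 FPKM (log2 change 0.39, SE 0.07, adjusted p = 0.0517). Both genes were higher in every dNKAP RNAi library than in any control, and neither passed the test. asRNA:CR43872, across the peroxisome biogenesis gene Pex23, measured 13.2 ± 0.728 and 16.2 ± 0.888 FPKM (log2 change 0.29, adjusted p = 0.142), and Pex23 5.84 ± 0.329 and 7.16 ± 0.130 FPKM (log2 change 0.27, adjusted p = 0.218).

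Among the other genes near the threshold, lncRNA:CR43264, within the span of CG15765, measured 9.53, 6.24 and 3.77 FPKM in control discs and 20.7, 16.0 and 23.7 FPKM in knockdown discs. Every dNKAP RNAi library lay above every control, with a log2 change of 1.62 (SE 0.34, adjusted p = 0.0793). CG15765 was also higher in each dNKAP RNAi library than in any control, at 1.63 ± 0.317 and 2.92 ± 0.866 FPKM (log2 change 0.66, adjusted p = 0.272). asRNA:CR45268 measured 5.71 ± 0.343 and 11.5 ± 2.89 FPKM (log2 change 0.93, SE 0.20, adjusted p = 0.0826). CG30196, 243 bases from it on the opposite strand, rose from 5.28 ± 1.28 to 25.7 ± 4.42 FPKM (log2 change 2.19, SE 0.21, adjusted p = 0.00686).

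lncRNA:CR46216 was listed at 0, 0 and 0.305 FPKM in control discs and at 6.17, 2.48 and 1.55 FPKM in knockdown discs, with separate groups (adjusted p = 0.0849). asRNA:CR45009, across FucTC, measured 3.50 ± 0.247 and 2.10 ± 0.167 FPKM (log2 change −0.63, adjusted p = 0.120). lncRNA:CR44334, 2709 bases from rn, a zinc finger gene of the wing pouch, measured 54.9, 33.9 and 32.4 FPKM in control discs and 24.4, 19.7 and 22.3 FPKM in knockdown discs. Its groups did not overlap (log2 change −0.82, adjusted p = 0.143), while those of rn did, at 72.8 ± 6.88 and 81.5 ± 5.30 FPKM (adjusted p = 0.394). asRNA:CR46045, across Tbc1d22, measured 17.5 ± 1.10 and 14.0 ± 0.998 FPKM without overlap (adjusted p = 0.148), and the groups of Tbc1d22 overlapped at 26.2 ± 2.10 and 24.1 ± 0.651 FPKM (log2 change −0.12, adjusted p = 0.473). lncRNA:CR43918, within Dp, was listed at 1.82, 2.86 and 3.35 FPKM in control discs and 1.61, 0 and 0 FPKM in knockdown discs (adjusted p = 0.220).

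When the test was limited to the 5511 genes above 0 in every library, other genes were called. lncRNA:CR43264, asRNA:CR44990 and asRNA:CR45268 then rose and asRNA:CR44850, asRNA:CR45009 and lncRNA:CR46123 fell, against a background of 4.26% higher and 1.07% lower. The adjusted p of the 5 genes added in this setting lay between 0.0250 and 0.0497. The 3 genes called higher over all 6506 genes were not tested in it, because each has a library listed at 0. Of 51 tested genes that overlap, span or lie nearest to the named genes, 3 rose and 0 fell by limma's test over the 6506 genes (background 3.21% and 0.507%), namely CG14695, CG30196 and CG12268.

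asRNA:CR11538 had a large change with a wide spread. It lies across Lsp2, a larval serum protein gene of the fat body, with 87.8% of its exon bases shared. Controls measured 43.9, 10.8 and 0.952 FPKM, and dNKAP RNAi replicates 1 to 3 measured 281.8, 154.5 and 426.5 FPKM. Each dNKAP RNAi library exceeded each control, and the controls were widely spread, with the third near 1 FPKM. The log2 change of 4.88 (SE 1.30) did not pass (adjusted p = 0.130), and Lsp2 was listed at 0 in all 6 libraries.

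Fat body transcripts were measured beside asRNA:CR11538. Fbp1, the fat body receptor gene for larval serum proteins, measured 25.1, 10.9 and 0.542 FPKM in control discs and 62.5, 137.2 and 561.1 FPKM in knockdown discs (adjusted p = 0.178). Lsp1alpha, another larval serum protein gene, measured 16.7, 2.17 and 0.449 FPKM in control discs and 97.9, 15.2 and 8.72 FPKM in knockdown discs (adjusted p = 0.341). Over the 5 fat body markers, the summed level ranged from 1.02 to 41.8 FPKM in controls and from 152.4 to 569.9 FPKM in dNKAP RNAi discs. Nearly all of that sum was Fbp1 and Lsp1alpha, and Apoltp averaged 0.0475 FPKM in controls and 0.0587 FPKM in dNKAP RNAi discs. Of the 5, 2 were tested, 0 passed limma's test, 1 had an unadjusted p under 0.05, and Lsp2 and Fbp2 were at 0. The part of fat body RNA in the value of asRNA:CR11538 was not tested.

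**Figure D5:**
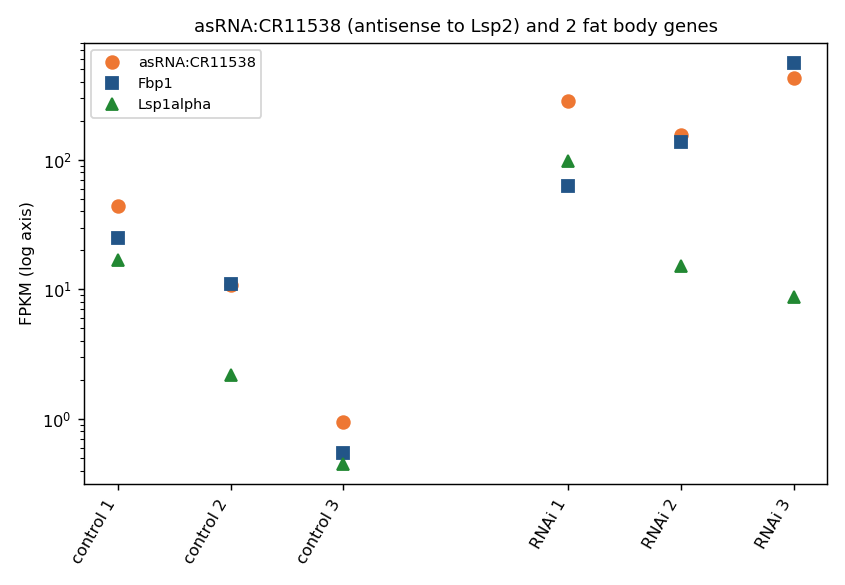
FPKM (log axis) of asRNA:CR11538, Fbp1 and Lsp1alpha in each library. Control replicate 1 has the highest and control replicate 3 the lowest control value of all 3 genes, and asRNA:CR11538 and Fbp1 are higher in every dNKAP RNAi library than in any control.

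Spread between libraries was larger for these genes than for genes at large. Among genes above 0 in every library, the median residual SD on the log2 scale was 0.26 for the 90 lncRNA and asRNA genes and 0.15 for all 5511. It was 0.16 for asRNA genes, near that of all genes, and 0.41 for lncRNA genes, whose levels were lower. By annotated transcript, 94.1% of the FPKM of the 129 genes came from exact matches to the reference, 5.08% from new isoforms that share a junction and 0.775% from other exonic overlap.

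Genes that act on noncoding RNA were measured beside them. Of 9 tested genes of the nuclear RNA exosome and its cofactors, 0 passed limma's test and 0 had an unadjusted p under 0.05, with Rrp42 at 34.0 ± 4.11 and 38.2 ± 1.67 FPKM and Ski6 at 31.9 ± 3.52 and 38.3 ± 3.74 FPKM as the most abundant. Of 13 tested Integrator genes 0 passed and 2 had an unadjusted p under 0.05, with IntS11 and IntS14 the most abundant. Of 8 genes of cytoplasmic decay 0 passed and 0 had an unadjusted p under 0.05, with Smg5, a nonsense-mediated decay factor gene, at 56.5 ± 23.1 and 83.7 ± 0.798 FPKM (adjusted p = 0.368). The deadenylation scaffold gene Not1 measured 55.2 ± 2.52 and 59.2 ± 7.65 FPKM.

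Of 8 tested genes for proteins known at the Hsr-omega locus or in omega speckles, 0 passed and 3 had an unadjusted p under 0.05. Among them, the hnRNP gene Hrb98DE measured 434.0 ± 32.8 and 337.4 ± 200.9 FPKM. Of 4 tested snoRNP protein genes 0 passed and 0 had an unadjusted p under 0.05. The most abundant of these, the methyltransferase gene Fib and nop5, measured 306.1 ± 31.9 and 313.1 ± 21.6 FPKM, and 269.96 ± 29.9 and 277.9 ± 15.0 FPKM. The median log2 change of the tested genes of each of these lists lay between −0.14 and 0.13.

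Markers of cell types other than disc epithelium were low or did not pass the test. In the hemocyte list, 4 of 5 genes were tested and 0 passed, with a summed level of 3.43 to 18.6 FPKM in controls and 9.97 to 18.5 FPKM in dNKAP RNAi discs, and He was at 0. lncRNA:CR44133 shares 81.4% of its bases with srp, the GATA factor gene of hemocytes and fat body in that list, on the same strand. It measured 0.517, 1.12 and 2.74 FPKM in control discs and 1.37, 1.11 and 2.62 FPKM in knockdown discs, and srp 0.693, 1.15 and 2.74 FPKM and 2.46, 1.82 and 3.61 FPKM. The tracheal, adult muscle precursor, notum and salivary gland lists had 3, 3, 5 and 3 tested genes, none of which passed limma's test and 1 of which had an unadjusted p under 0.05. Gut, neuron and testis markers had none that reached a mean of 1 FPKM, with LManVI, elav, aly and can at 0.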

How the data were processed

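Per the labels' protocols, wing disc RNA was isolated with Trizol for Illumina libraries and NextSeq sequencing. The authors deposited 1 transcript table per library, with FPKM, its confidence bounds, a class code for the match to the reference and a coverage signal (mean read depth per base), per the file headers. Tables were tied to samples through the names of the sheets. The submitters' processing notes name FastQC, HTSeq, DESeq and dm6. Not given in the sources used here are the aligner, versions, annotation release and strand setting. Since the columns hold FPKM and no counts, limma was used, as set out for FPKM.

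A gene's value was the FPKM sum of its transcripts with class codes = (exact match), c (contained), j (shared junction) and o (other exonic overlap). Of the listed gene identifiers, 17280 were matched to a name directly, 149 through their transcripts, and 96 had none. Positions and exon overlaps come from the Ensembl annotation (release 115, BDGP6). Groups and replicate numbers come from the titles. limma 3.58.1 (R 4.3.3) was run with a mean-variance trend on log2(FPKM + 0.5) where the mean reached 1 FPKM, two-sided, with Benjamini-Hochberg adjustment over 6506 genes and a threshold of 0.05. The procedure was tested on simulated data. Tables were joined in Python 3.11.15 (pandas 2.3.3, numpy 2.4.6) and plotted in matplotlib 3.10.9. The deposited bounds had a median half-width of 7.47% to 8.81% of the value for transcripts of 10 to 50 FPKM. They cover the estimate within a library only.

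The genes described and the lists were chosen with earlier results of these data known. Genes named are those past the threshold, the 12 most abundant, those with a name other than a CR number, the 6 nearest to the threshold in each direction, 3 on each side of the 1 FPKM rule, the neighbours of called genes, and from each list the called or else the 2 most abundant genes. The values of 1 gene that this rule names are not reported here. Pairs used as examples of overlap, single-library values, the neighbours of other named genes, lncRNA:CR44133, asRNA:CR44095, roX2 and Hsr-omega were chosen after their values were seen. Results were recomputed with 16 other settings, and with 2 more chosen after the data were seen.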

Additional observations from a re-analysis of the deposited data

How the results depend on the processing

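The count of lncRNA and asRNA genes called higher, 3, was 2 to 4 in the other settings except with a filter at a mean of 5 FPKM, which left 1 since lncRNA:CR45018 and asRNA:CR45195 were not tested, and it was 3 to 4 when single libraries were left out. The count called lower, 1, was 3 among genes above 0 in every library and 1 to 3 when single libraries were left out, with lncRNA:CR43918 and asRNA:CR46050 added without dNKAP RNAi replicate 1 (3 in all) and lncRNA:CR44608 without dNKAP RNAi replicate 3 (2 in all). The 4 called genes passed in every fit that left out 1 library. Over all genes, the split of 209 higher and 33 lower was 187 and 62 with quantile normalization, 202 and 58 with median-ratio scaling, 206 and 60 with no filter and 235 and 59 among genes above 0 in every library. Leaving out single libraries gave 120 to 148 higher and 29 to 37 lower. Scaling moved the median log2 change of all genes by less than 0.1.

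Deviations of same-numbered libraries correlated at 0.02, 0.07 and 0.06, and those of differently numbered libraries at −0.116 to 0.055. Correlations this low do not decide whether the numbers pair the samples. With the replicate number as a block, 72 genes were higher and 5 lower, with 2 lncRNA or asRNA genes higher and 0 lower (adjusted p = 0.0624 for asRNA:CR45195 and 0.0601 for lncRNA:CR46123). Over 34 named genes and their alternatives, 13 of 555 log2 changes took the other sign, all in genes that did not pass. With single libraries left out, the range was −0.11 to 0.077 for asRNA:CR44049, −0.11 to 0.23 for asRNA:CR44115, −0.13 to 0.078 for asRNA:CR44179, −0.19 (without control replicate 2) to 4.90 for lncRNA:CR42491, −0.22 to 0.12 for lncRNA:CR42862 and −0.054 (without dNKAP RNAi replicate 1) to 2.49 for the alphagamma element. Summed with its partner, asRNA:CR44115 had −0.024 and lncRNA:CR42491 −0.097, and lncRNA:CR42862 had 0.074 with quantile normalization and 0.063 with exact matches alone. The cause of these moves was not tested. Without read counts, the depth behind a single low value is unknown, and values near 1 FPKM and those listed at 0 limit what can be said of lncRNA genes.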
